A study of Homo sapiens with 12 samples.

Results

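The 10 genes described here encode enzymes of serine, glycine, asparagine, proline and cysteine synthesis and of the mitochondrial folate cycle: PHGDH, PSAT1, PSPH, SHMT2, MTHFD2, ASNS, ALDH18A1, PYCR1, CBS and CTH. They were chosen by symbol as a set of amino acid synthesis genes under the control of the transcription factor ATF4. The rule uses no measured value, but the set was drawn up with earlier results of these data known. Each of the 10 is listed among the 23284 symbols of the first experiment and among the 12421 symbols of the knockout experiment. None stood at the lowest value of its table in any library, and the lowest member value was 4.10 FPKM.

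The 12 libraries hold polyadenylated RNA from polysome fractions of HEK293, a human embryonic kidney cell line, 24 h after transfection with 5 ug of plasmid. In polysome profiling, cycloheximide holds ribosomes on RNA, and a sucrose gradient then separates ribosome-loaded RNA from the rest of the lysate. There were 6 groups of 2 libraries. In the first experiment, cells received a STING plasmid or the empty vector; STING, listed as TMEM173, relays signals from the sensor of cytosolic DNA. In the knockout experiment, cells labelled as knockouts of PERK (listed as EIF2AK3), an eIF2alpha kinase in the membrane of the endoplasmic reticulum, received STING (PERK KO STING) or vector (PERK KO vector), and wild-type cells received STING (WT STING) or vector (WT vector). Cells of all groups were thus transfected, and STING was supplied from a plasmid. Whether the knockout cells are a single clone is not given in the labels, nor whether replicates came from separate cultures, so the p-values cover only differences among these libraries, and those could be technical. Values are FPKM (fragments divided by transcript length and by the total of mapped fragments), with no total RNA analysed here, so more RNA and heavier ribosome loading of the same RNA cannot be told apart. The depth of the libraries is unknown, and the 2 tables are not on a shared scale.

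As background, phosphorylation of eIF2alpha slows most translation while favouring that of ATF4, which then binds composite elements in the promoters of amino acid transport and synthesis genes. Serine is made from a glycolytic intermediate by PHGDH, PSAT1 and PSPH in turn, and SHMT2 and MTHFD2 pass its side-chain carbon into mitochondrial folates. ASNS makes asparagine from aspartate, ALDH18A1 and PYCR1 stand at the start and the end of proline synthesis from glutamate, and CBS and CTH carry sulfur from homocysteine to cysteine.

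RefSeq promoter windows (GRCh38.p14, 250 bases before to 50 after a start site) matched 7 of the 10 genes, with 10 entries in all; PSPH, SHMT2 and PYCR1 had none. The 120 bases nearest to the start are given for ASNS, PSAT1 and MTHFD2, the members with the largest changes in the first experiment, to show where the letters searched for stand. They are chr7:97872409-97872528 on the minus strand for ASNS, chr9:78297005-78297124 on the plus strand for PSAT1 and chr2:74198495-74198614 on the plus strand for MTHFD2, all written 5′ to 3′ and ending at the base before the start. Capitals mark TGATGNAA in ASNS and CCAAT in the other two.
ASNS: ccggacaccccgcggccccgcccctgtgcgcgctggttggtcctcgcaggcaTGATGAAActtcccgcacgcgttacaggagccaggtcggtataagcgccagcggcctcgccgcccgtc
PSAT1: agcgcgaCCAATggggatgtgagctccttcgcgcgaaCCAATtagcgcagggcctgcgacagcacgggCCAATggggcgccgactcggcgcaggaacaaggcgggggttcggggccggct
MTHFD2: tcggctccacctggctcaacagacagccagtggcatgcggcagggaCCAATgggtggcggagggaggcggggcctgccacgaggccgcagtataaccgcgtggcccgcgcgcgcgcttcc
The ASNS match, TGATGAAA, begins 68 bases before the start and has the letters of a C/EBP-ATF composite element. ASNS had 2 entries, and the one shown was picked because it holds this match, which the other does not. Both strands were searched. TGATGNAA was found in 1 of the 10 member windows, the ASNS one shown, and in 3.62% of all 35116 windows. CCAAT, the letters bound by NF-Y, was found in 6 of the 10 windows, belonging to PHGDH, PSAT1, MTHFD2, CTH and CBS, and in 34.6% of all windows. PSAT1 had 3 copies, at 113, 83 and 52 bases before the start. MTHFD2 had 2, at 184 and 74 bases, of which the nearer one lies in the sequence shown. The CBS matches were in 2 of its 3 entries. ALDH18A1 held CACGTG (7.26% of windows), 136 bases before its start, and 2 overlapping matches to TGACGTNA (3.01% of windows). These matches describe letters in the windows and are not measured binding sites.

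The labels were checked first. TMEM173 averaged 67205 FPKM with STING and 14.4 FPKM with vector in the first experiment. Its level in the other table was 10512 and 7338 FPKM in PERK KO STING, 23.5 and 43.8 FPKM in PERK KO vector, 41812 and 40660 FPKM in WT STING and 23.1 and 36.7 FPKM in WT vector. Mean TMEM173 in WT STING was 4.62 times that in PERK KO STING. EIF2AK3 stood at the floor of 1 FPKM in 7 of 8 libraries of the knockout experiment. The exception was library 2 of PERK KO STING, at 1.15 FPKM. In the first experiment EIF2AK3 averaged 0.378 FPKM with STING and 0.370 FPKM with vector. The knockout label could thus not be checked with EIF2AK3. Of 5 markers of HEK293 cells, VIM and NEFL were detected, while NEFM was at 0 in the first experiment and PAX2 and LHX1 were at or under 0.195 FPKM there. In the first experiment the 8 haematopoietic markers summed to at most 10.3 FPKM in any library, the 6 hepatocyte markers to at most 4.72 and the 7 fibroblast markers to at most 0.450. The knockout table lists only 3, 2 and 1 of these, with a floor of 1 each, and their sums there reached 16.7, 9.79 and 1.75 FPKM; the markers it does not list were not analysed there.

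In the first experiment, which asks how STING changes the RNAs found on polysomes, 6 of the 10 enzymes rose with STING and none fell. These were ASNS, PSAT1, MTHFD2, CTH, SHMT2 and PHGDH, with ratios of mean FPKM between 1.64 and 2.90. The share of all 9464 genes tested that passed the same test (limma, adjusted p at or under 0.05) was 2.51% higher and 9.29% lower. The median log2 change was 0.78 over the members and -0.048 over all genes tested. Both STING libraries lay above both vector libraries for 7 members, against 24.2% of all genes, and below them for 0 members, against 32.8% of all genes.

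On the serine pathway, PHGDH, its first and committed enzyme, stood at 128 and 156 FPKM with STING, against 90.0 and 83.2 FPKM with vector. The groups did not overlap, and the log2 change of FPKM + 1 was 0.70 (SE 0.14, limma adjusted p = 0.0169). PSAT1, the transaminase of the second step, stood at 22.5 and 21.2 FPKM with STING, against 8.52 and 7.69 FPKM with vector. The replicates were close in both groups, and the log2 change was 1.33 (SE 0.18, limma adjusted p = 0.00506). PSPH, the phosphatase that releases serine, stood at 24.1 and 26.2 FPKM with STING, against 25.8 and 35.4 FPKM with vector. The PSPH groups overlapped and the change did not pass (log2 change -0.26, 95% interval -0.71 to 0.19, limma adjusted p = 0.440). PSPH and PSAT1 have pseudogene copies, and how reads shared with them were assigned is not given in the sources used here.

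Of the folate enzymes, SHMT2, which takes a carbon from serine and leaves glycine, stood at 80.0 and 101 FPKM with STING, against 43.0 and 55.2 FPKM with vector. The lower STING library was above the higher vector library (log2 change 0.87, SE 0.18, limma adjusted p = 0.0193). MTHFD2, a mitochondrial dehydrogenase and cyclohydrolase of methylene-tetrahydrofolate, stood at 76.0 and 76.2 FPKM with STING, against 26.6 and 40.5 FPKM with vector. Its spread lay almost wholly between the vector libraries (log2 change 1.19, SE 0.20, limma adjusted p = 0.0101).

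ASNS had the largest change of the set. It stood at 39.9 and 39.8 FPKM with STING, against 10.9 and 16.6 FPKM with vector, a ratio of means of 2.90 (log2 change 1.50, SE 0.22, limma adjusted p = 0.00553). As with MTHFD2, the STING libraries were nearly equal and the vector libraries were not. The proline enzymes did not pass. ALDH18A1, the bifunctional synthase that commits glutamate to proline and ornithine, stood at 13.7 and 15.6 FPKM with STING, against 10.9 and 11.1 FPKM with vector. These groups did not overlap, but the log2 change of 0.38 missed the threshold (95% interval -0.051 to 0.81, limma adjusted p = 0.233). PYCR1, the mitochondrial reductase that finishes proline, stood at 110 and 127 FPKM with STING, against 117 and 130 FPKM with vector, with overlapping groups (log2 change -0.06, 95% interval -0.36 to 0.24, limma adjusted p = 0.822).

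The pair of sulfur-transfer enzymes differed in outcome. CTH, which releases cysteine from cystathionine, stood at 8.66 and 11.5 FPKM with STING, against 4.44 and 4.64 FPKM with vector. The groups did not overlap (log2 change 0.99, SE 0.22, limma adjusted p = 0.0280). CBS, which joins homocysteine to serine, stood at 9.49 and 12.9 FPKM with STING, against 9.56 and 10.8 FPKM with vector. The vector libraries lay within the range of the STING libraries (log2 change 0.11, 95% interval -0.39 to 0.61, limma adjusted p = 0.785). CBS has a near-identical copy in newer genome annotation, CBSL, and how this was handled is not given in the sources used here.

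These calls rest on both STING libraries. Without STING library 1 and without STING library 2, 0 of the 10 members passed in either fit, although the members' median log2 change was 0.94 and 0.63 there; 42 and 38 of all genes passed. Adjusted p for the 6 enzymes lay between 0.128 and 0.232 in these fits. Without vector library 1, SHMT2 and CTH were lost, and without vector library 2, PHGDH and CTH. Without the intensity trend and robust estimation 0 members and 17 genes passed. With no filter on low values 3 members passed (ASNS, PSAT1 and MTHFD2), and PHGDH, SHMT2 and CTH had adjusted p of 0.0550, 0.0641 and 0.0698. Of the 2 HEK293 markers tested here, VIM also rose (75.0 and 75.1 FPKM with STING, 47.5 and 44.9 FPKM with vector), and NEFL, whose groups overlapped, did not pass (mean 2.09 FPKM with STING and 2.21 FPKM with vector). Their part in the result was not tested.

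**Figure D1:**
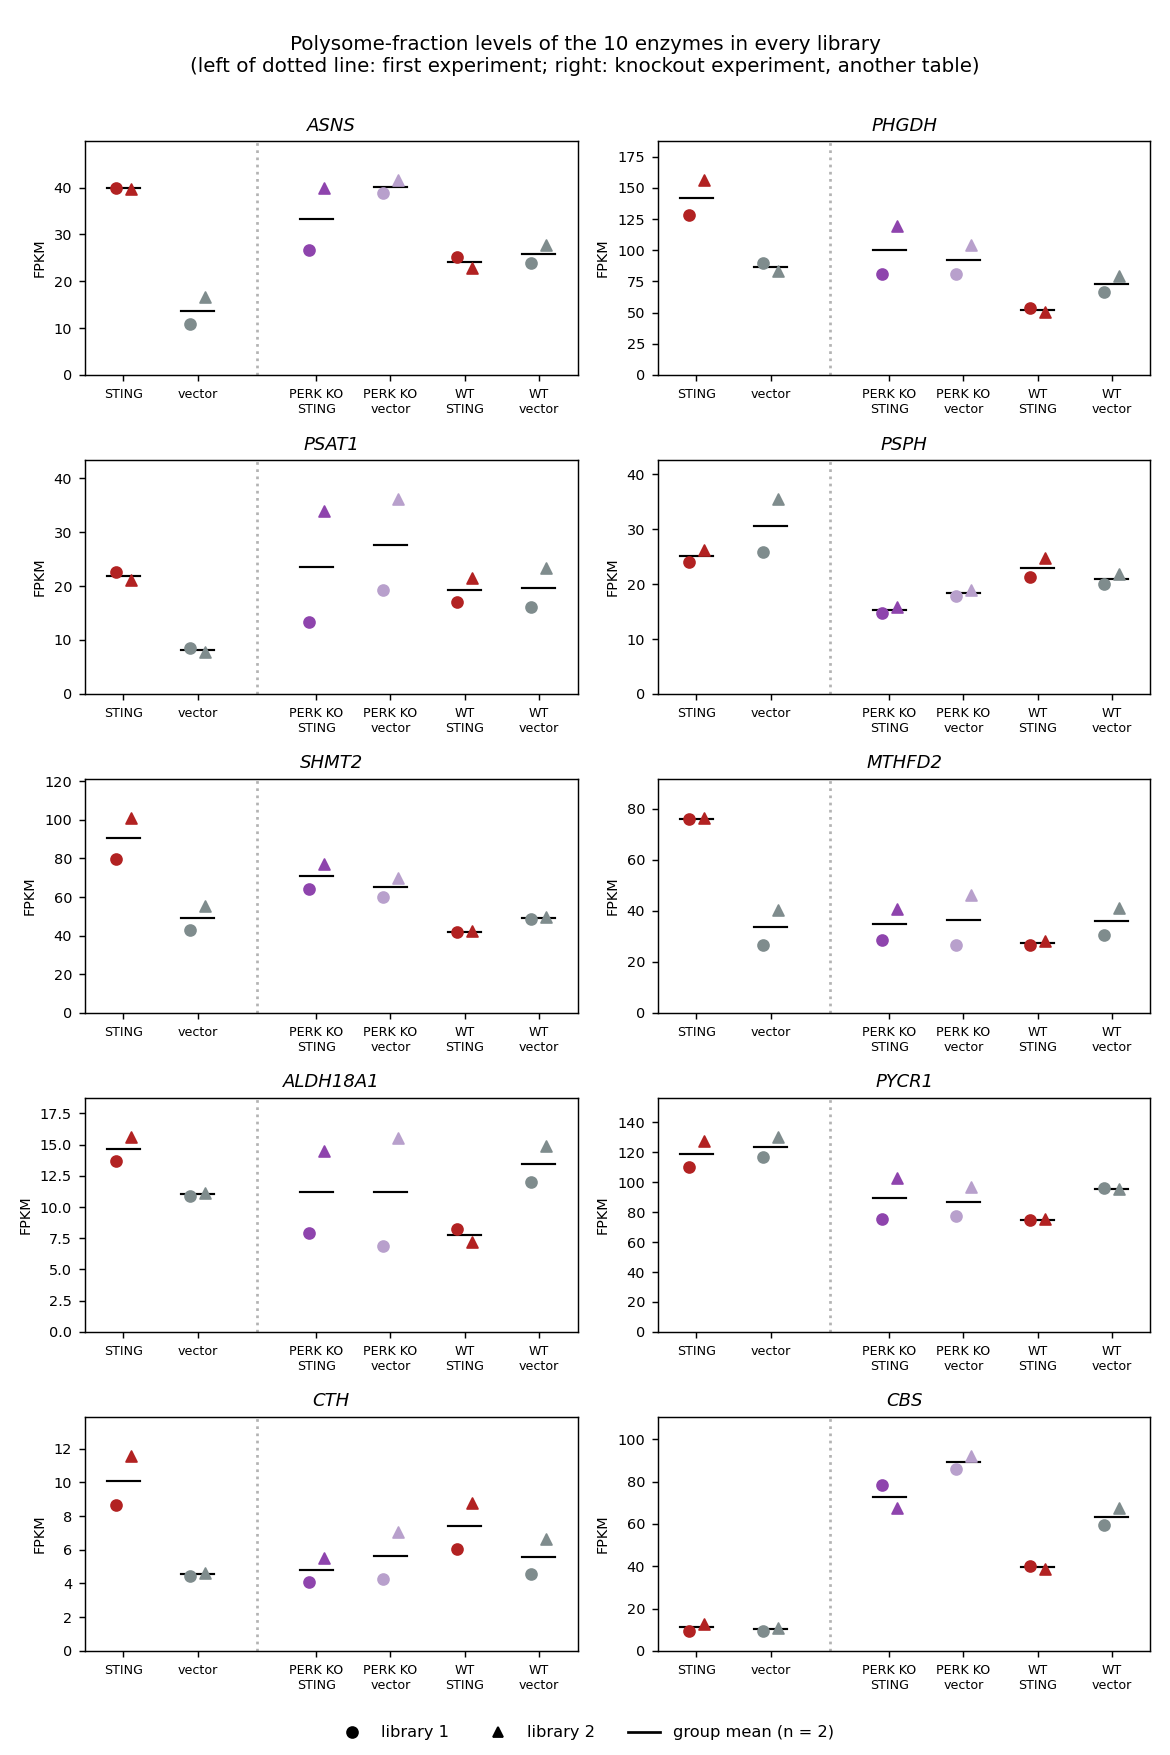
Level of each of the 10 enzymes in every library in FPKM, with circles for library 1, triangles for library 2 and bars for group means (n = 2). Left of the dotted line, ASNS stood at 39.9 and 39.8 FPKM with STING and at 10.9 and 16.6 FPKM with vector; right of it, in another table whose scale is not shared, no enzyme has both STING libraries above both vector libraries of its genotype.

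In wild-type cells of the knockout experiment, no enzyme passed in the STING response, and none had both STING libraries above both vector libraries. Of 12254 genes tested, 0.00816% passed, a single gene, TMEM173; 1570 genes and 1 member, CBS, had an unadjusted p under 0.05. Both libraries lay below those of vector for 6 members (PHGDH, SHMT2, MTHFD2, ALDH18A1, PYCR1 and CBS), beside 52.3% of all genes, and above for 0, beside 3.31% of all genes. The median log2 change was -0.28 for the members and -0.27 for all genes, so 5 of the 10 lay above the median gene.

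CBS had the smallest p of the members: 40.2 and 38.8 FPKM in WT STING, against 59.4 and 67.5 FPKM in WT vector (log2 change -0.67, 95% interval -1.06 to -0.27, limma adjusted p = 0.384). PHGDH stood at 53.9 and 50.3 FPKM in WT STING, against 66.3 and 79.3 FPKM in WT vector (log2 change -0.47, limma adjusted p = 0.410). ALDH18A1 stood at 8.26 and 7.22 FPKM in WT STING, against 12.0 and 14.9 FPKM in WT vector (log2 change -0.72, limma adjusted p = 0.424). These differences are larger than the gap between the libraries of either group but did not pass the test. PYCR1 stood at 74.8 and 75.4 FPKM in WT STING, against 96.0 and 95.5 FPKM in WT vector. SHMT2 stood at 41.9 and 42.5 FPKM in WT STING, against 48.5 and 49.6 FPKM in WT vector. MTHFD2 stood at 26.6 and 28.2 FPKM in WT STING, against 30.5 and 41.1 FPKM in WT vector. These 3 had log2 changes between -0.36 and -0.21, close to that of the median gene.

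ASNS, with the largest change of the first experiment, stood at 25.1 and 22.9 FPKM in WT STING, against 24.0 and 27.7 FPKM in WT vector (log2 change -0.10, 95% interval -0.63 to 0.43, limma adjusted p = 0.866). PSAT1 stood at 17.1 and 21.5 FPKM in WT STING, against 16.1 and 23.3 FPKM in WT vector, so that its STING libraries lay inside the range of its vector libraries. The remaining members had higher means with STING and overlapping groups. CTH stood at 6.02 and 8.78 FPKM in WT STING, against 4.58 and 6.61 FPKM in WT vector (log2 change 0.35, limma adjusted p = 0.567). PSPH stood at 21.3 and 24.7 FPKM in WT STING, against 20.1 and 21.9 FPKM in WT vector (log2 change 0.12). Rescaling the libraries by median-of-ratios or quantiles, which takes the all-gene median to 0.052 and to 0, gives ASNS, PSAT1, SHMT2, MTHFD2 and PYCR1 positive log2 changes, none past the threshold; PHGDH, ALDH18A1 and CBS keep theirs negative.

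In PERK knockout cells, again no enzyme passed in the STING response, and 0.00816% of the 12254 genes did, TMEM173 alone. No member and 944 genes had an unadjusted p under 0.05. Both libraries lay below those of vector for 2 members, CBS and PSPH, beside 21.9% of all genes, and above for 0, beside 5.66%. The median log2 change was -0.10 for the members and -0.11 for all genes. The sign of the members' median rests on single libraries: it was 0.23 without PERK KO STING library 1, -0.28 without PERK KO STING library 2, -0.34 without PERK KO vector library 1 and 0.16 without PERK KO vector library 2.

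CBS stood at 78.3 and 67.4 FPKM in PERK KO STING, against 86.1 and 92.0 FPKM in PERK KO vector (log2 change -0.29, 95% interval -0.69 to 0.11, limma adjusted p = 0.750). PSPH stood at 14.8 and 15.9 FPKM in PERK KO STING, against 17.7 and 18.8 FPKM in PERK KO vector (log2 change -0.24, limma adjusted p = 0.807). ASNS stood at 26.7 and 40.0 FPKM in PERK KO STING, against 38.8 and 41.6 FPKM in PERK KO vector. Library 1 of PERK KO STING alone was low for ASNS, and library 2 lay between the vector libraries. The libraries of 1 group were far apart for several members: PSAT1 stood at 13.3 and 34.0 FPKM in PERK KO STING, against 19.3 and 36.1 FPKM in PERK KO vector. ALDH18A1 stood at 7.89 and 14.5 FPKM in PERK KO STING, against 6.88 and 15.6 FPKM in PERK KO vector. Library 2 was above library 1 for 9 of the 10 members in PERK KO STING and for 10 in PERK KO vector, as it was for 6 in WT STING and 9 in WT vector. The median log2 difference, library 2 minus library 1, was 0.467 for the members and 0.115 for all genes in PERK KO STING. It was 0.336 and 0.122 in PERK KO vector, 0.0165 and 0 in WT STING and 0.229 and 0.0874 in WT vector. How many of all genes had library 2 above library 1 was not counted. PHGDH stood at 81.2 and 119 FPKM in PERK KO STING, against 80.9 and 104 FPKM in PERK KO vector. SHMT2 stood at 64.4 and 77.1 FPKM in PERK KO STING, against 60.2 and 70.1 FPKM in PERK KO vector. The groups of both genes overlapped. MTHFD2 stood at 28.7 and 40.9 FPKM in PERK KO STING, against 26.4 and 46.2 FPKM in PERK KO vector. PYCR1 stood at 75.8 and 103 FPKM in PERK KO STING, against 77.6 and 96.7 FPKM in PERK KO vector. CTH, the lowest of the set, stood at 4.10 and 5.52 FPKM in PERK KO STING, against 4.28 and 7.03 FPKM in PERK KO vector, and all 3 of these overlapped.

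The difference between the responses in PERK knockout and wild-type cells was tested as an interaction. Mean TMEM173 in WT STING was 4.62 times that in PERK KO STING, and its part in the interaction was not tested. The interaction is thus between genotypes that also differ in the level of STING. The interaction passed for no member and for 0% of the 12254 genes, and 474 genes and 0 members had an unadjusted p under 0.05. The largest member value was that of ALDH18A1, 0.76 on the log2 scale (95% interval -0.54 to 2.06). The lowest was that of CTH, -0.52 (95% interval -1.53 to 0.49), and ASNS had -0.19 (95% interval -0.94 to 0.56). Limma adjusted p was 0.966 for 9 members and 0.970 for PSAT1. The intervals of the 6 enzymes that passed in the first experiment were set beside their changes there. For PSAT1 and CTH the interval reached as far below 0 as that change lay above it. For PHGDH, SHMT2 and MTHFD2 it reached that far above 0 only, and for ASNS on neither side. The tables of the 2 experiments are not on a shared scale.

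**Figure D2:**
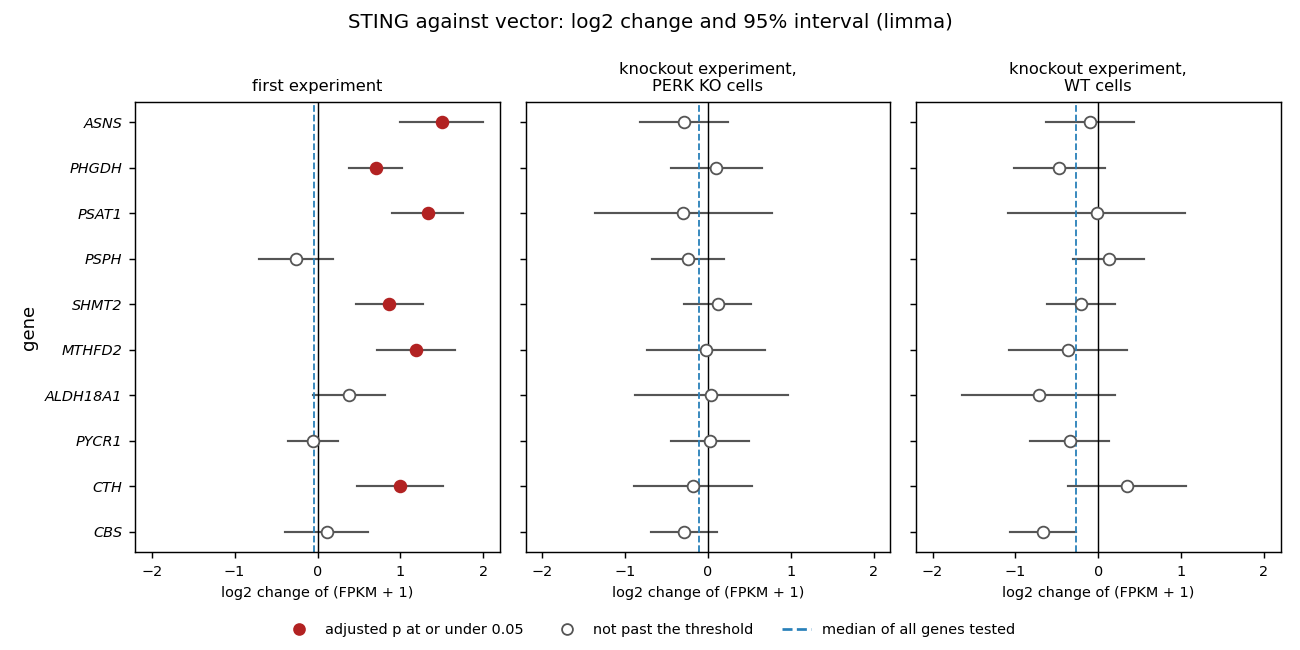
Log2 change of FPKM + 1, STING against vector, for the 10 enzymes in the first experiment, in PERK knockout cells and in wild-type cells; lines are 95% intervals from limma, filled points passed at an adjusted p of 0.05, and the dashed line is the median of all genes tested. In the first experiment 6 points are filled, from 0.70 for PHGDH to 1.50 for ASNS, and none is filled in the other panels, where the dashed lines stand at -0.11 and -0.27.

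Between genotypes with STING, several of the enzymes had higher levels in PERK knockout than in wild-type cells, and none passed the test, beside 1.75% of the 12254 genes. Of the members, 4 had an unadjusted p under 0.05 (CBS, SHMT2, PHGDH and PSPH), as did 2132 genes. Both PERK KO STING libraries lay above both WT STING libraries for 6 members (ASNS, PHGDH, SHMT2, MTHFD2, PYCR1 and CBS), beside 24.8% of all genes, and below for 2 (PSPH and CTH), beside 20.6%. The members' median log2 difference was 0.37, that of all genes 0.024; without PERK KO STING library 1 the members' median was 0.73 and without PERK KO STING library 2 it was 0.047.

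CBS stood at 78.3 and 67.4 FPKM in PERK KO STING, against 40.2 and 38.8 FPKM in WT STING, a ratio of means of 1.84 (log2 difference 0.86, SE 0.17, limma adjusted p = 0.0570). PHGDH averaged 100.3 ± 27.0 FPKM in PERK KO STING and 52.1 ± 2.51 FPKM in WT STING (SD, n = 2 each), with a log2 difference of 0.91 (limma adjusted p = 0.109). SHMT2 averaged 70.8 ± 8.97 FPKM in PERK KO STING and 42.2 ± 0.448 FPKM in WT STING (log2 difference 0.73, limma adjusted p = 0.0929). These differences were wider than the gap between libraries of either group. PSPH differed the other way, with 15.3 ± 0.799 FPKM in PERK KO STING and 23.0 ± 2.42 FPKM in WT STING (log2 difference -0.55, limma adjusted p = 0.187). The call depends on the setting: CBS passed with 4 of 16 alternatives, PHGDH with 3 and SHMT2 with 2, and with quantile normalization adjusted p was 0.0481 for CBS, 0.0335 for PHGDH and 0.0367 for SHMT2. TMEM173 was 4.62 times as high in WT STING, and VIM stood at 211 and 319 FPKM in PERK KO STING, against 102 and 107 FPKM in WT STING. Mean NEFL was 12.8 FPKM in PERK KO STING and 4.52 FPKM in WT STING, and mean APOA1, a hepatocyte marker, 6.14 FPKM in PERK KO STING and 2.07 FPKM in WT STING. NEFM stood at 1.70 and 3.24 FPKM in PERK KO STING, and COL1A1, a fibroblast marker, at 1.75 and 1.05 FPKM. Both were at the floor of 1 FPKM in WT STING. None of these markers passed, and the part of TMEM173 and the markers in the differences of the enzymes was not tested.

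With vector, the same comparison passed for no member, beside 0.049% of all genes; 2 members, ASNS and CBS, and 1516 genes had an unadjusted p under 0.05. Both PERK KO vector libraries lay above both WT vector libraries for 4 members (ASNS, PHGDH, SHMT2 and CBS), beside 12.5% of all genes, and below for 1, PSPH, beside 25.8%. ASNS stood at 38.8 and 41.6 FPKM in PERK KO vector, against 24.0 and 27.7 FPKM in WT vector (log2 difference 0.62, 95% interval 0.091 to 1.15, limma adjusted p = 0.338). CBS stood at 86.1 and 92.0 FPKM in PERK KO vector, against 59.4 and 67.5 FPKM in WT vector (log2 difference 0.48, limma adjusted p = 0.324). Of the markers, none of which passed, both PERK KO vector libraries lay above both WT vector libraries for 3: mean VIM was 198 FPKM in PERK KO vector and 111 FPKM in WT vector, mean NEFL 11.4 FPKM in PERK KO vector and 6.27 FPKM in WT vector, and mean APOA1 6.26 FPKM in PERK KO vector and 2.31 FPKM in WT vector. Their part in the members' differences was not tested. Among the 4 groups of the knockout experiment, ASNS, PSAT1 and CBS had the order PERK KO vector, PERK KO STING, WT vector, WT STING, and PHGDH and SHMT2 differed from it only in that PERK KO STING came first. For ASNS and PSAT1 each neighbour in this order overlapped the next. For CBS, PERK KO STING overlapped WT vector and the other neighbours stood apart, and for PHGDH and SHMT2 the PERK KO groups overlapped each other and no other group. PSPH ran the other way, with WT STING first and PERK KO STING last.

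**Figure D3:**
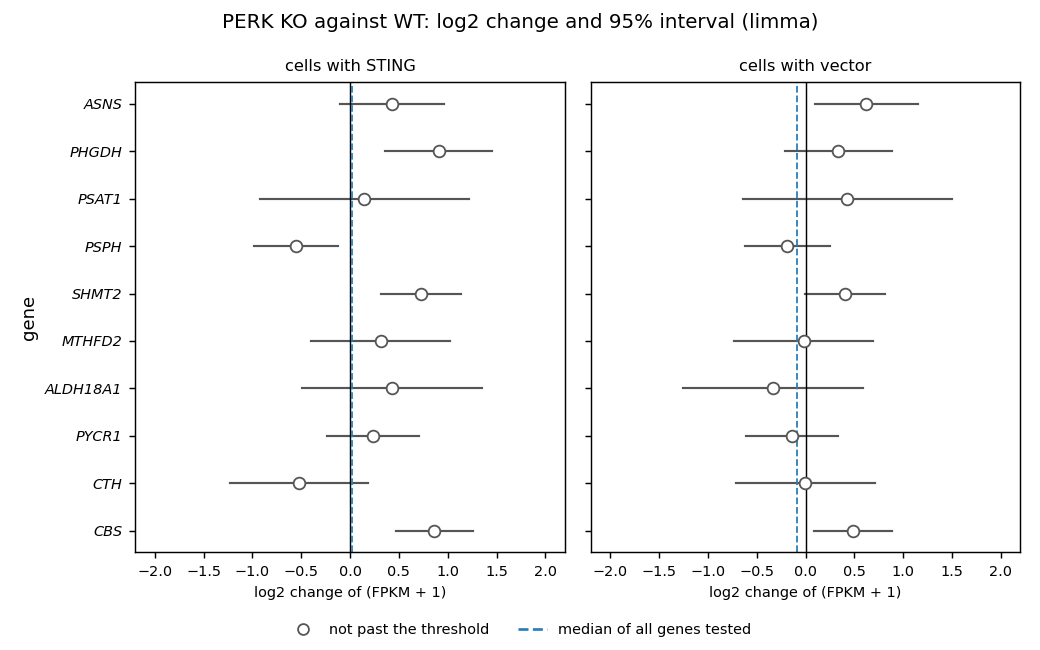
Log2 difference of FPKM + 1, PERK KO against WT, for the 10 enzymes in cells with STING and in cells with vector; lines are 95% intervals from limma, open points missed an adjusted p of 0.05, and the dashed line is the median of all genes tested. With STING, the points of PHGDH, CBS and SHMT2 lie at 0.91, 0.86 and 0.73 and that of PSPH at -0.55.

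Over 5 lists of other genes of these pathways, 5 of 40 tested genes (12.5%) passed in the first experiment in either direction, a share near the 11.8% of all genes tested. Of 6 tested genes of serine and glycine metabolism 2 fell and 0 rose: SDSL, a serine dehydratase-like enzyme, stood at 5.44 and 4.60 FPKM with STING, against 23.3 and 25.9 FPKM with vector (log2 change -2.09, limma adjusted p = 0.00143). GCAT, which acts in the breakdown of threonine to glycine, stood at 70.9 and 82.9 FPKM with STING, against 120 and 122 FPKM with vector (log2 change -0.66, limma adjusted p = 0.0179). Of 5 genes of proline and ornithine metabolism, 2 fell. PYCRL (now PYCR3), a cytosolic reductase of proline synthesis, stood at 14.6 and 13.2 FPKM with STING, against 30.5 and 35.9 FPKM with vector (log2 change -1.20, limma adjusted p = 0.00604). PRODH, which starts proline breakdown, stood at 0.495 and 0.722 FPKM with STING, against 2.24 and 2.29 FPKM with vector (log2 change -1.02, limma adjusted p = 0.0425). Of 8 tested genes of methionine, cysteine and glutathione metabolism, AHCY, which splits S-adenosylhomocysteine, rose (179 and 203 FPKM with STING, 111 and 120 FPKM with vector, log2 change 0.72, limma adjusted p = 0.0102).

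None of 11 tested folate genes and none of 10 genes around asparagine, aspartate and glutamate passed in the first experiment, although 3 and 4 of them had an unadjusted p under 0.05. MTHFD1, the cytosolic trifunctional folate enzyme, and GART, of purine synthesis, came nearest among the folate genes (log2 changes 0.70 and 0.59, limma adjusted p = 0.0651 and 0.0739). GOT2, mitochondrial aspartate aminotransferase, and GLUL, glutamine synthetase, came nearest in the other list (log2 changes 0.49 and 0.93, limma adjusted p = 0.0670 and 0.0736). Median log2 changes in the first experiment were -0.40 for serine and glycine, 0.37 for folate, -0.75 for proline and ornithine, 0.35 for asparagine, aspartate and glutamate and 0.21 for methionine, cysteine and glutathione, beside 0.78 for the 10 enzymes.

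Of 13 tested genes for ATF4 and its regulators and targets, 6 rose and none fell in the first experiment, beside 2.51% of all genes higher and 9.29% lower. They were ATF3, CEBPB, CEBPG and DDIT3, transcription factors of the stress response, PPP1R15A, a subunit of the phosphatase that acts on eIF2alpha, and CHAC1, which breaks down glutathione. ATF3 stood at 55.0 and 51.3 FPKM with STING, against 13.1 and 8.34 FPKM with vector (log2 change 2.24, limma adjusted p = 0.00176). CHAC1 averaged 38.6 FPKM with STING and 18.8 FPKM with vector, and DDIT3 57.7 FPKM with STING and 28.3 FPKM with vector. ATF4 itself stood at 520 and 567 FPKM with STING, against 403 and 493 FPKM with vector (log2 change 0.28, limma adjusted p = 0.186). An RNA level on polysomes is not a measure of ATF4 protein. Of the 12 listed genes that passed in the first experiment, VIM included, 0 passed without STING library 1 and 0 without STING library 2, against 9 without vector library 1 and 6 without vector library 2. Without the intensity trend and robust estimation 0 passed, with median-of-ratios 9, with quantiles 8 and with no filter 8. CEBPB, CEBPG and PRODH were lost in each of these fits, and GCAT was also lost with quantiles and with no filter.

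In the knockout experiment, none of these genes passed in the STING response of PERK knockout or wild-type cells, nor in the interaction. For the 13 genes of the ATF4 list, the median log2 change in PERK knockout cells was -0.45, beside -0.11 for all genes. STING lay wholly below vector for 7 of them, beside 21.9% of all genes, and wholly above for 1, beside 5.66%. In wild-type cells the list median was -0.0022, beside -0.27, with 2 wholly below and 2 wholly above. Its interaction median was -0.29, beside 0.13 for all genes. Genes with the smallest p of each list are given, at most 2 a list. In wild-type cells these were SDSL and GCAT (log2 changes -1.08 and -0.65), PYCRL and PRODH (-0.98 and -0.77), ASL and ASRGL1 (-1.20 and -0.81), MTHFD1L and FPGS (-0.59 and -0.51), GSS and MAT2A (-0.61 and -0.69) and, among ATF4 genes, ATF3 and DDIT3 (0.56 and 0.47). In PERK knockout cells they were SDSL and GCSH (log2 changes -0.36 and -0.29), PYCRL (-0.37), ASNSD1 and ASRGL1 (-0.67 and -0.62), MTHFD1 (-0.25), AHCY and GCLC (0.74 and 0.28) and NUPR1 and CHAC1 (-1.24 and -1.12). In the interaction they were GCAT and SDSL (0.63 and 0.72), PYCRL and PRODH (0.61 and 0.77), ASL and GLUL (0.83 and 0.54), MTHFD1L and FPGS (0.58 and 0.44), GSS and AHCY (0.86 and 1.13) and DDIT3 and CHAC1 (-0.92 and -1.25).

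Between genotypes with STING, AHCY stood at 109 and 147 FPKM in PERK KO STING, against 30.9 and 38.2 FPKM in WT STING (log2 difference 1.85, limma adjusted p = 0.0333). ASS1, argininosuccinate synthase, stood at 77.3 and 81.7 FPKM in PERK KO STING, against 43.3 and 36.9 FPKM in WT STING (log2 difference 0.97, limma adjusted p = 0.0443). DDIT4 was also higher (log2 difference 1.90, limma adjusted p = 0.0439), and CHAC1 and DDIT3 were lower. CHAC1 stood at 8.55 and 5.92 FPKM in PERK KO STING, against 21.5 and 23.7 FPKM in WT STING (log2 difference -1.54, limma adjusted p = 0.0477). DDIT3 stood at 43.8 and 37.9 FPKM in PERK KO STING, against 81.7 and 80.4 FPKM in WT STING (log2 difference -0.97, limma adjusted p = 0.0439). The median log2 difference of the 13 genes of the ATF4 list was -0.52 with STING, beside 0.024 for all genes and 0.37 for the 10 enzymes. PERK KO STING lay wholly below WT STING for 10 of the 13, beside 20.6% of all genes, and wholly above for 2, beside 24.8%. With vector the list median was -0.26, beside -0.091 for all genes. Mean TMEM173 was 4.62 times as high in WT STING as in PERK KO STING, and its part in the differences of these genes was not tested. Lists with no call there had GART and MTHFD1L (log2 differences 0.69 and 0.44), PRODH and PYCRL (1.07 and 0.61) and GCAT and SRR (0.63 and 0.61) nearest. With vector no list gene passed, and nearest were SDSL and SHMT1 (-0.53 and -0.38), PRODH and OAT (0.31 and 0.28), ASS1 and ASNSD1 (0.88 and -0.45), MTFMT and MTHFD1 (-0.20 and -0.35), AHCY and TST (0.73 and -0.45) and NUPR1 and SESN2 (1.63 and -0.95). ATF4 averaged 1488 ± 374 FPKM in PERK KO STING and 2666 ± 231 FPKM in WT STING (SD, n = 2 each; log2 difference -0.86, limma adjusted p = 0.106). Without PERK KO vector library 1, AHCY and DDIT4 passed and 128 of all genes did, against 215; without any other single library of the 8, none of these 5 list genes passed and at most 1 of all genes did.

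**Figure D4:**
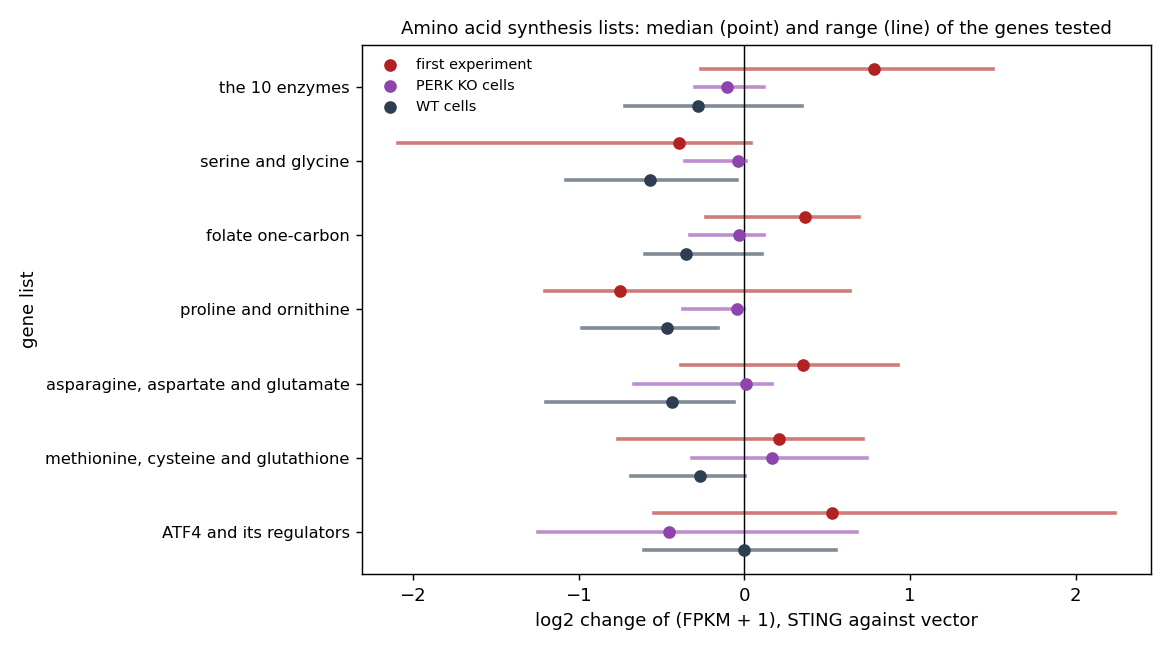
Log2 change of FPKM + 1, STING against vector, as the median (point) and the range (line) of the tested genes of each list, in the first experiment, in PERK knockout cells and in wild-type cells. The 10 enzymes have a median of 0.78 in the first experiment, -0.10 in PERK knockout cells and -0.28 in wild-type cells, and the proline and ornithine list has -0.75 in the first experiment.

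Across the 12 libraries, with each table centred on its own mean, 37 of 45 pairs of members had a Pearson r above 0, with a median of 0.436 and a range of -0.688 to 0.915. Pairs of other genes were not counted, so whether the set stands out is unknown. The pooled r can hide a difference between the tables. For ASNS with CTH, r was 0.941 over the first table's 4 libraries and -0.146 over the other table's 8. For PHGDH with SHMT2 it was 0.930 and 0.952. How many pairs differed in sign between the tables was not counted. The points share library preparation, and groups of the same table share a scale. Of 4829 other genes with a mean of at least 5 FPKM in both tables, those most like ASNS were DDX3X (r = 0.956), an RNA helicase, TRIM28 (0.953), a corepressor of transcription, FBXO17 (0.935), MYC (0.932), a transcription factor, and KHDRBS1 (0.928), an RNA-binding protein. Those most like the mean of the 10 enzymes were HSP90AB1 (0.949), a cytosolic chaperone, GMPS (0.946), which makes GMP, POLDIP3 (0.944), CCT8 (0.944), a chaperonin subunit, and ADCK3 (0.941). In the knockout experiment alone, r with ASNS was 0.892, 0.832, 0.813, 0.857 and 0.832 in the order given. There r with the mean of the enzymes was 0.919, 0.932, 0.897, 0.972 and 0.928. These values describe likeness over these libraries.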

How the data were processed

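Polysome-fraction RNA was sequenced from 12 libraries, 2 in each of 6 groups, which were mapped to groups by their titles and, in the first table, by their descriptions. FPKM values were made by the authors and deposited as a table for each experiment; the submitters' processing notes name TopHat2 2.1.1, Cufflinks 2.2.1 and build hg19, with no roles. The knockout table names no unit and was taken to hold FPKM, with anything below 1 raised to 1, so falls to that floor are understated. Neither table holds counts, so depth is unknown and no counting interval is given. A spike-in is named in the labels' protocols for the knockout experiment and was not used here.

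Log2(FPKM + 1) values were tested with limma 3.58.1 (R 4.3.3); this scale understates changes of low genes. Genes with a mean of at least 1 in a table and more than 1 distinct value were tested, 9464 and 12254. Each group had its own mean, tables were fitted separately, eBayes used an intensity trend and robust estimation, and p-values were two-sided and adjusted by Benjamini and Hochberg over all genes at 0.05. The 10 members and the gene lists were chosen with earlier results of these data known. All members are named in each comparison; of the other lists, genes past the threshold and, where a list had none, the 2 with the smallest p, except some that are not reported here. Promoter sequences came from RefSeq (GRCh38.p14), searched with Python 3.11.15.

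Alternatives changed the pseudocount, the filter, the scaling and the variance model, added a replicate block, and left out each library in turn.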

Additional observations from a re-analysis of the deposited data

Results flagged for a closer look

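Both STING libraries lay on one side of both vector libraries in the first experiment and on the other side in wild-type cells of the knockout experiment for 4 members. The log2 change of MTHFD2 was 1.19 in the first experiment and -0.361 in wild-type cells, and that of SHMT2 was 0.868 and -0.213. The log2 change of PHGDH was 0.702 in the first experiment and -0.470 in wild-type cells, and that of ALDH18A1 was 0.379 and -0.721. Such sides were also common outside the set. STING lay wholly above vector for 24.2% of all genes tested with the first table. WT STING lay wholly below WT vector for 52.3% of all genes tested with the knockout table. How many of all genes changed side was not counted, so whether the 4 members stand out is unknown. The difference between experiments was not tested, since the tables are not on a shared scale, and the all-gene median was -0.27 in wild-type cells. Scaling by median-of-ratios gives MTHFD2 and SHMT2 positive values in wild-type cells.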

How the results depend on the processing

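Of 920 values of members over 20 settings, 833 kept their direction and their side of the threshold, 25 lost the threshold, 9 gained it and 53 changed sign, and none of these 53 was past the threshold in either fit; the cause was not tested. First experiment, genes past the threshold: 580 with no filter on low values and 17 without the trend and robust options, against 1117; members, 3 and 0, against 6. The share of calls that were lower was 78.7%, 70.8% with median-of-ratios and 55.5% with quantiles. PERK KO against WT with vector: 17 genes with a pseudocount of 0.1, 32 with a mean of at least 5, 53 with median-of-ratios, 24 with quantiles and 0 without the trend, against 6. PERK KO against WT with STING: 356, 449 and 468 genes with a mean of at least 5, median-of-ratios and quantiles, against 215, with 31.2% lower, 39.0%, 37.4% and 43.4%; members, 1, 1 and 3, and 1 without the trend, against 0.

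The labels do not say that a replicate number marks a shared batch or day, and each group has only 2 numbers, so no pairing was assumed. The correlation of same-numbered deviations was 0.0741 in the first experiment and 0.0418 to 0.528 in the knockout experiment, and a shared source there was not tested. With the replicate block, 851 genes and 3 members (CBS, PHGDH and SHMT2) passed in PERK KO against WT with STING, 105 genes in PERK KO against WT with vector and 2 in the STING response of PERK KO cells; the first experiment had 1587 genes and the same count of 6 members.

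Sign changes with median-of-ratios and with quantiles were: first experiment PYCR1 0.0031 and 0.23; WT STING response ASNS 0.28 and 0.28, PSAT1 0.35 and 0.36, SHMT2 0.17 and 0.17, MTHFD2 0.017 and 0.020, PYCR1 0.039 and 0.031; PERK KO STING response MTHFD2 0.16 and 0.21; PERK KO against WT with vector MTHFD2 0.15 and 0.13, PYCR1 0.031 and 0.028, CTH 0.14 and 0.11. CTH there was 0.0020 with a pseudocount of 5.

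Leaving out each library in turn gave 38 to 818 genes and 0 to 4 members in the first experiment, 1 to 2 genes in the WT STING response, 1 to 3 in the PERK KO STING response, 0 to 3 in PERK KO against WT with vector and 0 to 128 with STING. Log2 changes that crossed 0 ranged as follows: first experiment PYCR1 -0.16 to 0.045 and CBS -0.090 to 0.31; WT STING response ASNS -0.20 to 0.0027 and PSAT1 -0.27 to 0.24; PERK KO STING response PHGDH -0.17 to 0.38, ALDH18A1 -0.49 to 0.58, PYCR1 -0.19 to 0.25, PSAT1 -0.94 to 0.35, MTHFD2 -0.42 to 0.36, CTH -0.48 to 0.13 and SHMT2 -0.011 to 0.24; interaction MTHFD2 -0.058 to 0.72, PSAT1 -0.93 to 0.37 and ASNS -0.47 to 0.092; PERK KO against WT with vector MTHFD2 -0.41 to 0.37, CTH -0.30 to 0.30, ALDH18A1 -0.87 to 0.20, PYCR1 -0.30 to 0.014 and PSAT1 -0.0097 to 0.86; with STING PSAT1 -0.50 to 0.79. A left-out library leaves 1 in its group, assumed to vary like the others. Depth is unknown, so what it limits could not be set.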
